A study of Mus musculus with 41 samples.

Results

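The common lymphoid progenitor (CLP) was set against the 6 later populations of the mouse B cell path, Hardy fractions A to F. The 7 arrays titled as CLP, of 41 in all, were compared with the mean of the 6 fraction means, so that each fraction counted equally whatever its number of arrays. The description centres on the genes whose CLP arrays did not overlap any of the 34 fraction arrays. Of 11947 genes tested, 47 had every CLP array above every fraction array (0.393% of genes tested) and 8 had every CLP array below (0.0670%), which makes 55 genes. These 55 were picked by their values on these arrays, so their levels are a description.

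RNA was measured on single-colour Affymetrix arrays, 1 per sample, with 7 arrays each for the CLP, fraction A and fraction B, and 5 each for fractions C, D, E and F. All 7 populations were flow sorted from C57BL/6 mice, and in all of them Pax5, a transcription factor of B cell commitment, was wild type. The labels name no treatment. Total RNA was purified with Arcturus PicoPure, amplified with the NuGEN Ovation Pico system and labelled with biotin. The labels name neither the tissue, the sorting gates, the age of the mice nor the animal behind each array. The p-values therefore speak only of the spread among these arrays, part of which may be technical. In sorted bulk RNA, fewer cells of a type and less RNA per cell cannot be told apart.

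As background, the CLP is a bone marrow progenitor that can still give rise to B, T, natural killer (NK) and other innate lymphoid cells and to some dendritic cells. Its usual description rests on the receptor tyrosine kinases Flt3 and Kit and on the interleukin 7 receptor, whose signals drive its survival and growth. In the Hardy scheme, the path runs from pre-pro-B cells in fraction A through pro-B cells and large precursors in B and C to small precursors in D, and then to the newly made B cells of E and the mature ones of F. Along this path stem and progenitor genes are switched off, and the factors Ebf1 and Pax5 install the B cell programme.

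The deposited signals are on the linear MAS5 scale, with a median of 69.1 to 153.1 per array. The CLP arrays had medians of 110.0 to 130.4 and correlated with each other at 0.935 to 0.983 over the genes tested. All fraction B arrays had lower medians, of 69.7 to 92.7. Fraction A was the most variable group, with correlations of 0.748 to 0.961 and a ratio of the 3' to the 5' Gapdh probe sets of 12.7 ± 9.92 (SD, n = 7), against 4.17 ± 0.519 (SD, n = 7) in the CLP. That ratio is a sign of RNA length and quality, and its part in the comparisons was not tested. No 2 arrays held identical values.

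The label of the CLP arrays was checked against 8 genes used to describe that progenitor. Flt3, Kit, the interleukin 7 receptor gene Il7r, the costimulatory receptor Cd27 and Dntt, the DNA polymerase that adds bases at V(D)J joints, were all higher in the CLP than in the mean of the fractions. Their log2 differences were 3.85 ± 0.31, 2.49 ± 0.33, 0.76 ± 0.12, 2.75 ± 0.26 and 2.64 ± 0.33 (± SE). Differences here and below are on log2(signal + 32), a scale that shrinks differences between low signals. Ly6d, which marks CLPs that lean to the B lineage, differed by 0.32 ± 0.17 (adjusted p = 0.144), and the recombinase gene Rag1 by 0.18 ± 0.22 (adjusted p = 0.545), neither of which passed the test. Ly6a, the gene of Sca-1, was not named by the probe annotation and was not analysed here. The test was limma with Benjamini-Hochberg adjustment over all 11947 genes, and a gene was called at an adjusted p under 0.05.

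Slc35d3 is shown here because it had the widest gap between the CLP and all other arrays, Cd34 and Flt3 because they are the progenitor surface receptors that led the comparison, and Prkcb because it was the gene furthest below all fractions. Each window runs from 250 bases before to 50 bases after an annotated gene start, 5′ to 3′ on the gene's strand, from RefSeq on build GRCm38.p6. The windows are chr10:19851410-19851709 (minus strand) for Slc35d3, chr1:194938571-194938870 (plus strand) for Cd34, chr5:147400440-147400739 (minus strand) for Flt3 and chr7:122288875-122289174 (plus strand) for Prkcb. Capitals mark matches, on either strand, to the motifs named in the next paragraph.
Slc35d3: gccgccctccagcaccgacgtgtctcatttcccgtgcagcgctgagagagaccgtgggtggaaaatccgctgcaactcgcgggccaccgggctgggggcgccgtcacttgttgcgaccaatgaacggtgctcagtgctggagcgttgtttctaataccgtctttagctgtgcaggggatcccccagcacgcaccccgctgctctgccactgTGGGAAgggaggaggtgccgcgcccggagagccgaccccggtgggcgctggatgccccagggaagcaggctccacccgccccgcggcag
Cd34: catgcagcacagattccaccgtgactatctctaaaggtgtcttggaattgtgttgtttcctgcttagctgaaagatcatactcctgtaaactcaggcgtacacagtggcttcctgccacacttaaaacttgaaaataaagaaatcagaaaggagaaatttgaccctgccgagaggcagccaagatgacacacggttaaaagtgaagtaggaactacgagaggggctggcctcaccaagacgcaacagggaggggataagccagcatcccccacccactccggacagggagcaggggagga
Flt3: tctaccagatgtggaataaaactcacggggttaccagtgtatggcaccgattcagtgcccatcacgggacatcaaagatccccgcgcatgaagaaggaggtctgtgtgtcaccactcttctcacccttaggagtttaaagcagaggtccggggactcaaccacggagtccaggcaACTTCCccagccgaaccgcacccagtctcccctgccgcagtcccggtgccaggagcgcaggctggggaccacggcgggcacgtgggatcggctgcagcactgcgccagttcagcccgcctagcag
Prkcb: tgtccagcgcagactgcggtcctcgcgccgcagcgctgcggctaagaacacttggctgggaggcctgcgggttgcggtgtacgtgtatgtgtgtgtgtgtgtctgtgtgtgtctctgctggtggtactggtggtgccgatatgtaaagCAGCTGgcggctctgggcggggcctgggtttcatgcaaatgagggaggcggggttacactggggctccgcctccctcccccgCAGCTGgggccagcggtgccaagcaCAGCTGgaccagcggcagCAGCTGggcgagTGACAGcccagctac

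Of the 47 genes above, 39 matched an entry of that promoter table by symbol, with 60 starts between them, and 6 of the 8 below did. The whole table held 32851 starts. Short motifs of factors that act in blood cells were searched on both strands. RUNX factors were searched with the letters TGTGGT, and members of the GATA family with AGATAA. ETS factors, named for the domain they share, were searched with GGAAGT, and MEIS factors with TGACAG. The motif of Ikaros was taken as TGGGAA, and the E box of factors such as E2A as CAGCTG. None of these motifs contains another. Of the 60 starts, 15 held the ETS motif, against 23.8% of all starts, and 18 (30.0%) the Ikaros motif, against 25.6%. The RUNX motif lay in 13.3% of the 60 and 16.8% of all starts, the E box in 20.0% and 16.3%, the MEIS motif in 13.3% and 19.2%, and the GATA motif in 3.3% and 11.2%. Counted by gene, the 39 were set against the 9693 tested genes with an entry. The shares were then 20.5% and 15.8% for RUNX, so its direction depends on the count. They were 33.3% and 32.6% for ETS, 35.9% and 26.4% for Ikaros, and 20.5% and 17.6% for the E box. For MEIS they were 12.8% and 20.0%, and for GATA 5.1% and 8.0%. In the windows printed, Slc35d3 held 1 match, an Ikaros motif whose first base lay at -39 from the start, and Flt3 held 1, an ETS motif at -75. The window of Cd34 held none of the 6 motifs. The window of Prkcb held 4 E boxes, at -102, -20, 6 and 24, and a MEIS match at 36. A match is a description of the letters, not of a bound site.

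Across all genes the CLP was higher than the mean of the fractions in 2952 genes (24.7% of those tested) and lower in 1409 (11.8%), so 67.7% of the 4361 called genes (36.5% of those tested) were higher. Of these, 1086 were at least 2-fold higher and 263 at least 2-fold lower. The median difference over all genes tested was 0.13. With each array centred on its median this shift was 0.02, and the split became 2181 higher and 1769 lower, or 55.2% higher. All 47 genes above the fractions and all 8 below were called, which follows in large part from how they were chosen.

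The cell surface receptors and adhesion molecules among the 47 genes included the largest differences. Icos, a costimulatory receptor of the CD28 family known from T cells and innate lymphoid cells, had CLP signals of 1003.2 at the lowest, 1543.3 at the median and 3937.7 at the highest. The highest fraction array was at 860.3, in fraction A, and the means of fractions B to F lay between 20.2 and 62.1. The CLP was 22.9-fold higher than the mean of the fractions (log2 difference 4.52 ± 0.38, limma adjusted p = 1.21e-12). Fraction A was thus the only fraction with arrays near the CLP, and its 7 arrays ran from 4.4 to 860.3. Both other probe sets of Icos, which overlapped the fractions, were also higher, by 2.71 and 2.38.

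Cd34, a sialomucin of stem and progenitor cells, ran from 1070.8 through a median of 1345.5 to 1978.6 in the CLP. The fraction means fell from 510.8 in A and 66.7 in B to 11.3 in D, and the highest fraction array reached 896.7. The log2 difference was 4.21 ± 0.27 (limma adjusted p = 5.46e-16). Fraction A was thus the only fraction with a mean anywhere near the CLP. Flt3, the receptor for Flt3 ligand, ran from 1904.0 through 2099.9 to 2940.9 in the CLP, with fraction means of 1221 for A, 468 for B, 102.4 for C and 33.5 to 49.7 for D to F. Its highest fraction array, at 1786.6 in A, lay just under the lowest CLP array.

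Adgrg3, an adhesion G protein-coupled receptor, varied little in the CLP, at 3014.4, 3496.5 and 3769.4. It was also the gene with the narrowest gap, since 1 array of fraction B reached 2985.3. Its mean was 1569 in B, 950.2 in A and 13.6 to 41.7 in D to F, so its high level was shared in part with A and B. Ramp1, which pairs with the calcitonin receptor-like receptor to bind calcitonin gene-related peptide, had a CLP range of 1488.0 to 2489.5 and a difference of 3.48 ± 0.33. Its mean declined from 807.4 in A to 13.8 in F.

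Il17rb, a subunit of the receptor for interleukin 25, ran from 1125.1 through 1731.1 to 4303.4 in the CLP, against at most 703.0 in any fraction array (difference 3.42 ± 0.29). Unlike Flt3 it was flat in the fractions after A, with means from 115.4 in C to 150 in F. Il6st, the shared signalling chain gp130 of the interleukin 6 family, was at 1781.5 to 2799.4 in the CLP and at most 1309.1 elsewhere (difference 1.98 ± 0.18). Ffar2, a receptor for short-chain fatty acids, ran from 602.4 to 1145.5 with the nearest array, at 482.9, in fraction C (difference 2.65 ± 0.24). Mst1r, the receptor tyrosine kinase RON, was called at low signals, 87.0 to 183.7 in the CLP and at most 84.1 elsewhere (difference 1.28 ± 0.20).

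Sdc1, the heparan sulphate proteoglycan CD138 of plasma cells and early B cell precursors, had CLP signals of 2543.4, 3166.7 and 3944.6 at the lowest, median and highest array. Its mean was 309.6 in A and 777.3 in B, peaked at 1957 in C and was 1182 in D. Fraction C came nearest, with 2411.6 on its highest array. Nlgn2, a neuroligin adhesion protein, ran from 487.0 to 963.6 and the fractions reached 297.0 at most. Its lowest CLP array was 1.64 times the highest fraction array.

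**Figure D1:**
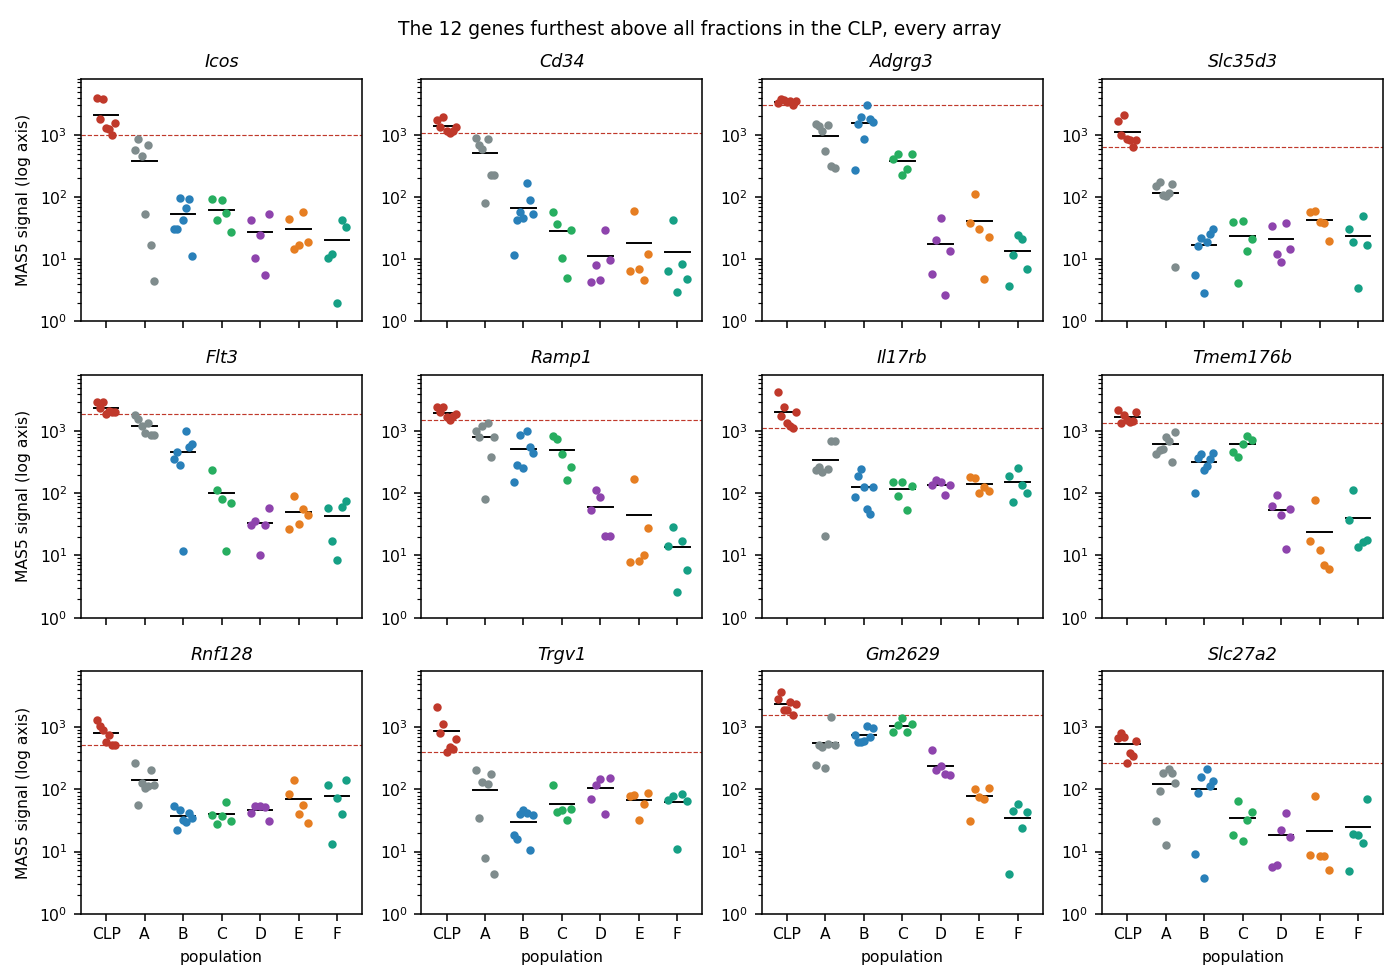
MAS5 signal (log axis) on every array for the 12 genes furthest above the mean of the fractions among those without overlap, by population. Points are arrays, black bars are population means, and the dashed red line is the lowest CLP array, below which all 34 fraction arrays lie; for Icos that line is at 1003.2 and the highest fraction array at 860.3.

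Transporters and enzymes of lipid handling formed another set, grouped here after the values were seen. Slc35d3, an orphan member of the nucleotide sugar transporter family, had the clearest separation of all 47 genes. Its CLP signals were 637.2, 870.2 and 2087.0 at the lowest, median and highest array, and no fraction array passed 178.6, so the lowest CLP array was 3.57 times the highest other. The difference was 4.06 ± 0.22 (limma adjusted p = 7.51e-18). Fraction A had a mean of 118.5, and the fractions after it had means of 17.3 to 43.1.

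Slc27a2, a fatty acid transporter and very long-chain acyl-CoA synthetase, ran from 270.2 to 813.7 in the CLP against at most 216.3 (difference 2.94 ± 0.30). Fads1, a desaturase of polyunsaturated fatty acid synthesis, ran from 1965.8 to 2941.9 against at most 1825.2 (2.50 ± 0.35), and Lpcat2, a lysophospholipid acyltransferase, from 1677.9 to 2133.3 against at most 1537.9 (1.94 ± 0.24). These 3 differed in where the fractions came nearest. The nearest array was in A for Slc27a2, in B for Fads1 and in C for Lpcat2.

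Slc18a1, a vesicular monoamine transporter, ran from 187.1 to 594.5 in the CLP, and on every fraction array it lay below that array's median, with 84.1 the highest signal. Tmem176b and Tmem176a, neighbouring genes of multi-span membrane proteins, were 3.23 ± 0.23 and 2.51 ± 0.26 higher. For both, fractions A to C stood between the CLP and D to F: Tmem176b had means of 317.6 to 611.6 in A to C and 24.1 to 54.5 in D to F.

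Some of the 47 genes regulate transcription or signalling, grouped here after the values were seen. Meis1, a homeobox factor of stem cells that acts with Hox proteins, ran from 359.6 through 565.6 to 1506.2 in the CLP, against at most 325.2 in the fractions (difference 1.51 ± 0.22). It was nearly flat outside the CLP, with means of 156.3 to 237.4. Rnf128, an E3 ubiquitin ligase first described as a brake on T cell activation, ran from 517.7 to 1318.3 against at most 264.2 (3.12 ± 0.21), and Sh2d5, an SH2 domain adaptor, from 1869.3 to 2568.0 against at most 1771.4 (2.68 ± 0.19). Sh2d5 declined step by step, its means from A to F being 1085, 781.4, 541.8, 268.0, 141.7 and 52.7. Klf16, a zinc finger factor, had the smallest difference of the 47, 1.03 ± 0.17.

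DNA repair and mitochondrial enzymes were also present. Xpc, which recognises DNA damage in nucleotide excision repair, was 1.88 ± 0.24 higher, with 1157.7 to 2351.4 in the CLP and at most 918.4 elsewhere. Sirt3, a mitochondrial deacetylase, Ak4, a mitochondrial adenylate kinase, and Acad8, an acyl-CoA dehydrogenase, were higher by 1.75, 1.70 and 1.38.

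Trgv1, a variable segment of the T cell receptor gamma locus, had CLP signals of 394.2, 640.6 and 2109.2 at the lowest, median and highest array, and at most 206.5 in the fractions (difference 3.05 ± 0.28). Segments of that family resemble each other in sequence, so the signal may be shared between them, which was not tested. 5830411N06Rik was at 144.3 to 1444.1 against at most 88.6 (2.74 ± 0.25), and Dzip1, a zinc finger protein of the primary cilium, at 182.0 to 1161.1 against at most 146.1 (2.87 ± 0.27). Gm2629, a gene without a described role here, was 2.96 ± 0.22 higher.

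The other genes above all fractions were Fstl3, Cpne2, Map9, Wfdc18, Akr1c13, 2610035D17Rik, Nim1k, 5730409E04Rik, Ahcyl2, Cln6, Tmem108, Snd1, Gphn, Supt3, Mgat4a, Nudt3 and Tmem201. Their differences lay between 1.12 for Tmem201 and 2.54 for Fstl3. Over all 47 the median difference was 2.28, 29 genes were at least 4-fold and 10 at least 8-fold higher. The gap between the lowest CLP and the highest other array was small for most of them, with a median of 0.13 on the log2 scale and 7 genes at 0.5 or more.

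Just inside the rule lay Adgrg3 and Mgat4a above, with gaps of 0.014 and 0.024, and Pdcd2 and Sptbn1 below, with gaps of 0.026 and 0.045. Just outside lay Fam167a and Mgat5, whose lowest CLP array equalled or missed the highest other array (0 and -0.0012), and Atp1b1 and Eif3f below (-0.040 and -0.077). Of the 47 genes, 41 passed the filter on low signals on fraction arrays alone. The other 6, 5830411N06Rik, Ak4, Dzip1, Mst1r, Slc18a1 and Wfdc18, passed only with the CLP arrays, so they had to be higher there. All 8 genes below passed on the fraction arrays alone.

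**Figure D2:**
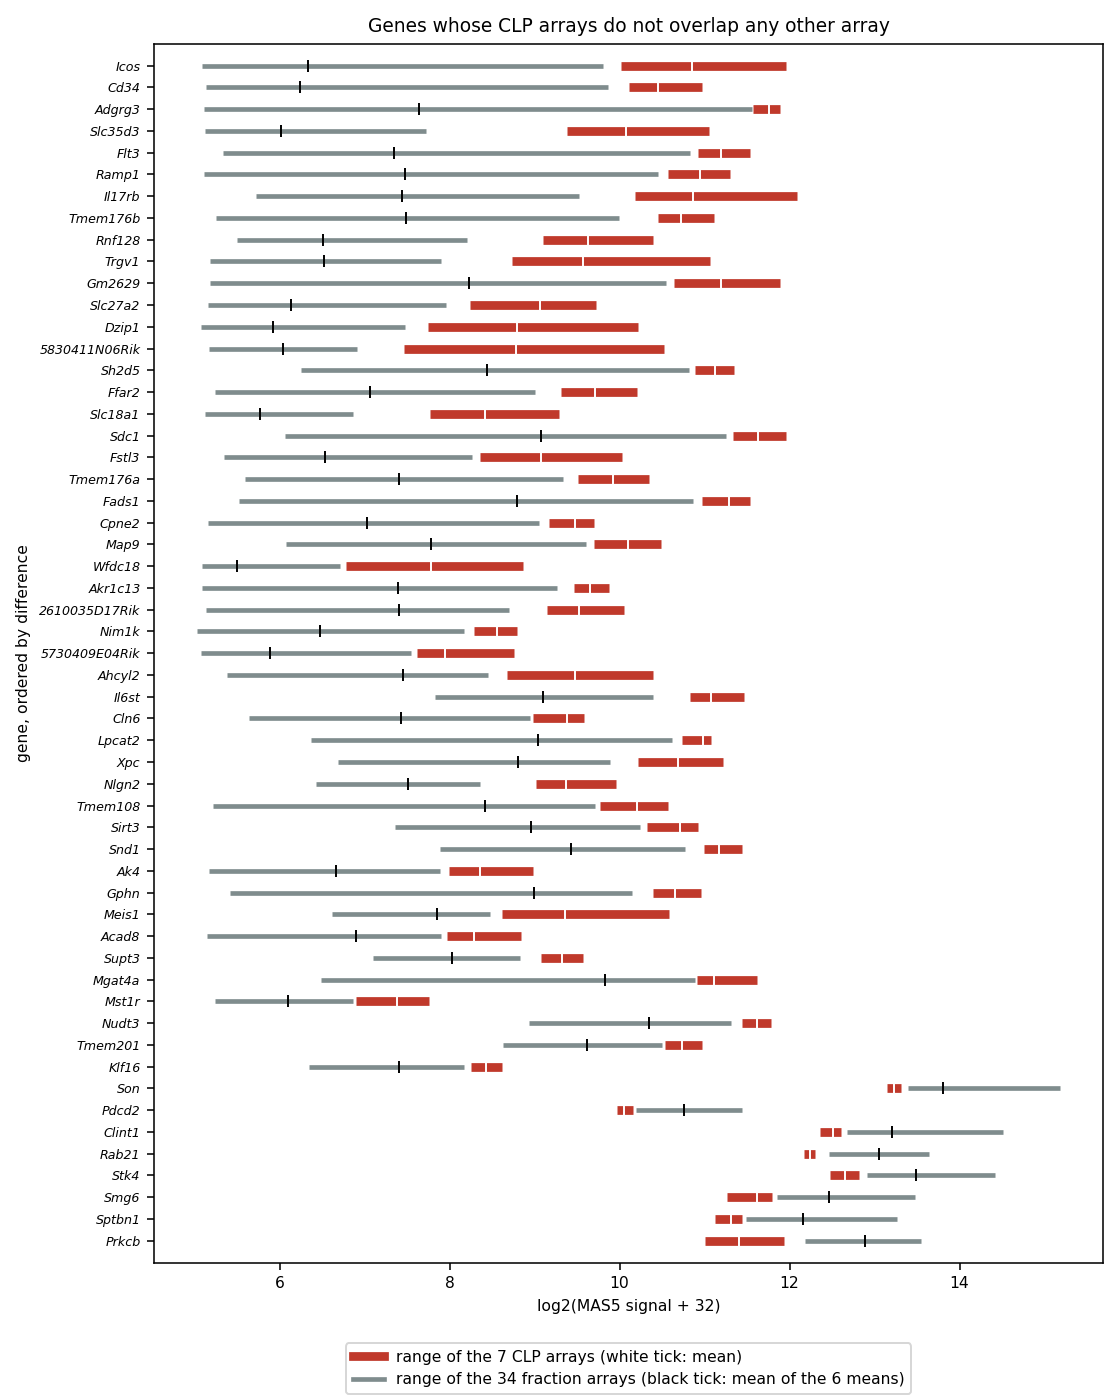
Range of log2(MAS5 signal + 32) over the 7 CLP arrays (red, white tick at the mean) and the 34 fraction arrays (grey, black tick at the mean of the 6 fraction means) for the 55 genes, ordered by difference. No red and grey bars overlap, and the gap is widest for Slc35d3 (1.67) and narrowest for Adgrg3 (0.014).

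The 8 genes with every CLP array below all others were broadly expressed, and their differences were smaller. Prkcb, the protein kinase C beta that relays B cell receptor signals, stood apart. Its CLP signals were 2019.5, 2425.6 and 3879.0 at the lowest, median and highest array, and the lowest fraction array was at 4596.8, in B. The means were 5954 to 6367 in A to C and rose to 10864 in F, and the CLP was 2.78-fold lower than the mean of the fractions (log2 difference -1.48 ± 0.11, limma adjusted p = 6.90e-14). Both other tested probe sets of Prkcb were also lower, by -0.49 and -1.47.

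The remaining 7 differed by -0.57 to -0.84. They were Sptbn1, a spectrin of the membrane skeleton, Smg6, a nuclease of nonsense-mediated decay, Stk4, a kinase of the Hippo pathway, Rab21 and Clint1, proteins of vesicle traffic, Pdcd2, and Son, a protein of nuclear speckles in splicing. Stk4 ran from 5654.0 to 7204.0 in the CLP, and its lowest fraction array was at 7660.6. Its means were 8846 in C and 11143 to 13828 in the other fractions. Fraction C had the lowest mean of the 6 fractions for 7 of the 8 genes (87.5%). The share was 35.5% of all genes called lower and 11.5% of all genes tested. With quantile normalization 3 of the 8 genes kept the separation and with median centring 2 did, and Prkcb alone kept it under both.

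The 47 genes above did not fall evenly along the path. The fraction with the highest mean was C for 27 genes, A for 13, B for 3, D for 2, and E and F for 1 each. C was highest for 57.4% of the 47, for 45.6% of all genes called higher and for 24.7% of all genes tested. In 26 genes (55.3%) the means of A, B and C all exceeded those of D, E and F, against 38.4% of genes called higher and 15.9% of all genes tested. The single array closest to the CLP was in A for 22 genes, in C for 16 and in B for 9, and in D, E or F for 0. With quantile normalization 29 of the 47 kept the separation, with median centring 23, and 19 under both, among them Icos, Il17rb, Slc35d3, Rnf128, Ramp1, Trgv1, Ffar2 and Il6st. All 55 genes were still called under both scalings.

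**Figure D3:**
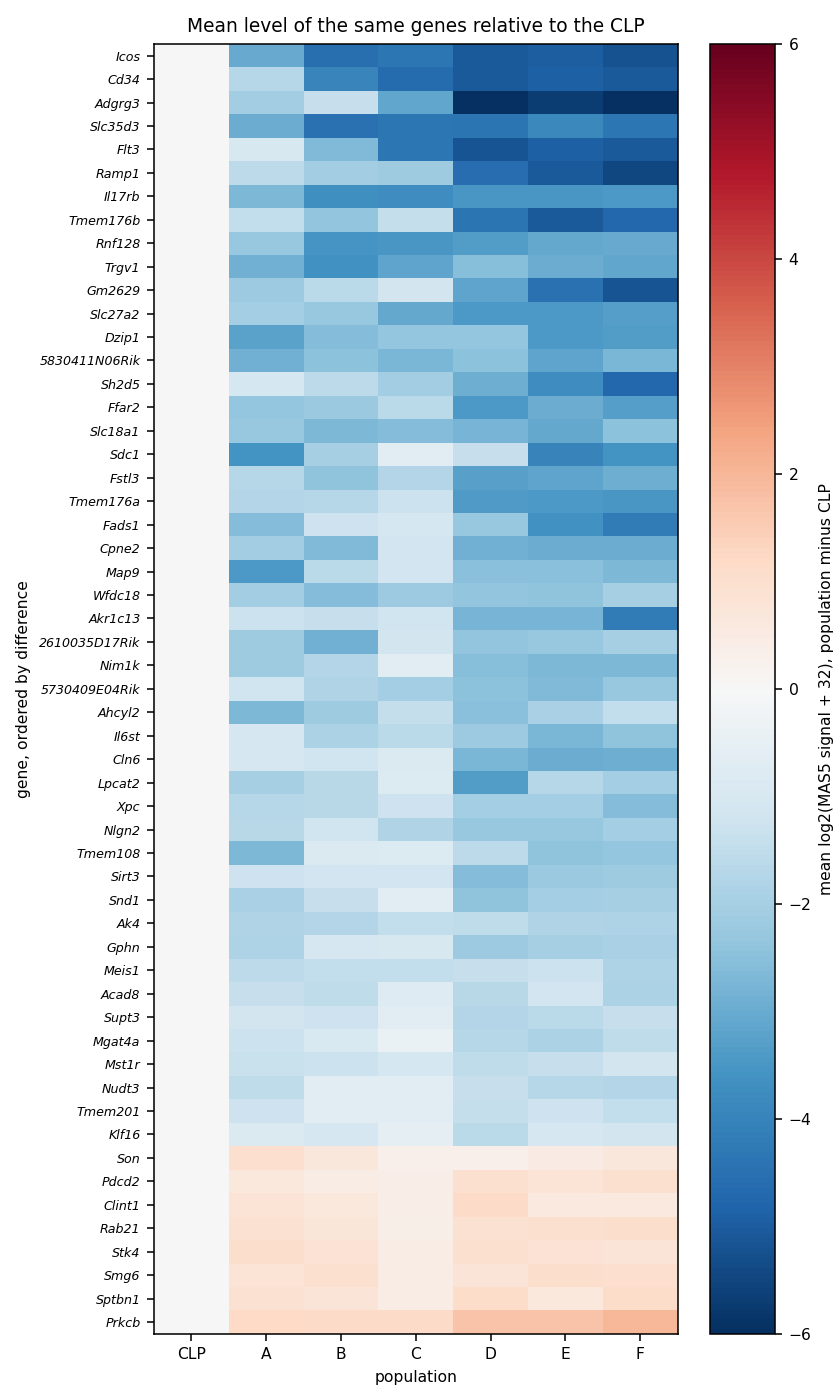
Mean log2(MAS5 signal + 32) of each population minus that of the CLP for the same 55 genes, blue where the population lies below the CLP and red where it lies above. Columns A to C are paler than D to F for 26 of the 47 genes above, and column C is palest for 27 of them.

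Many genes are measured by more than 1 probe set, and the text uses the one with the highest mean. For the 47 genes, 33 other probe sets in 21 genes could be tested, of which 25 were also higher, 2 were lower and 6 were not called. The 2 that were lower belonged to 2610035D17Rik (-0.97) and Tmem108 (-0.66), so for these genes the direction depends on the probe set. Both had low mean signals in the CLP, 4.1 and 78, against 67.7 and 195.4 over the fraction arrays. The probe sets used here had CLP means of 718.3 and 1159.8. Separation from all fraction arrays was seen in a further probe set of Ahcyl2, Ramp1, Rnf128 and Sh2d5. For the 8 genes below, 18 other probe sets were tested, with 6 lower and 12 not called. The 6 belonged to Prkcb, Son and Sptbn1. No other probe set of Smg6, Stk4, Rab21 or Clint1 was called, and Pdcd2 had no other probe set.

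The choice of probe set also left genes out. Bcl11b, a transcription factor of T cell and innate lymphoid commitment, overlapped the fractions by the probe set used here (1.60 ± 0.23). Another of its probe sets had every CLP array above all others, at 514.1 to 2891.4 against at most 379.4, with a difference of 3.79. A probe set of Cd22, the sialic acid-binding inhibitory receptor of B cells, had every CLP array below all others, 23 to 57.3 against at least 85 (-3.10). Counted by probe set, 23 more in 22 genes lay above and 1 lay below. Bcl11b and Cd22 were singled out after their values were seen.

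Fraction A set the limit of the separation for many genes. Without its 7 arrays, 212 genes had every CLP array above all others and 42 below, that is 165 and 34 more. Leaving out the 5 arrays of fraction F instead gave 51 and 9. Fraction B or C was not left out in this way, so A is not compared with them here. Leaving out arrays can only add such genes. Fraction A was also the most variable fraction, with a median SD per gene of 0.79 on the log2 scale. That SD was 0.50 in B and 0.25 to 0.32 in C to F. The part of this spread in the counts was not tested. Among the genes gained above without A were Hoxa9, a homeobox factor of stem and progenitor cells, the T lineage and progenitor surface protein Thy1, the interleukin 18 receptor Il18r1, the factor Gata3, Cd27 and the chemokine receptor Ccr9. Hoxa9 ran from 3062.2 to 5400.7 in the CLP and from 154.5 to 3587.1 in A, with means of 1262 in B, 464.2 in C and 28.5 to 62.7 in D to F. Il18r1 was higher still in A, with a mean of 12686 against a CLP median of 1501.8. Among those gained below were the B cell genes Ms4a1, the gene of CD20, Fcrla, Fcmr, Irf4, Cd79b and Syk.

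Set against 1 fraction at a time, with the CLP arrays shared by all 6 comparisons, the number of genes without overlap was 646 above and 476 below for A, 987 and 600 for B and 761 and 575 for C. For D, E and F it was 2713 and 1651, 2748 and 1752, and 2702 and 1632. The number of arrays differs between fractions, 7 in A and B and 5 in the others, and an overlap is more likely with more arrays. It is also more likely with a wider spread among the arrays of a fraction, which differs as given above. The part of that spread in these counts was not tested.

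The wider programme was described with lists of genes, each to be read against the 24.7% of all tested genes that were higher and the 11.8% that were lower. Of 20 tested stem and multipotent progenitor genes, 18 were higher, 1 was lower and 1 was not called, with a median difference of 1.16 against 0.13 over all genes. Cd34, Hoxa9 (4.05 ± 0.38), Kit and Egfl7, a secreted factor first described in endothelium (2.41 ± 0.22), led the list. The only member that was lower was Slamf1 (-0.58 ± 0.20), whose mean was 675.5 in F. It was not called without fraction F (-0.099, limma adjusted p = 0.759), with a pseudocount of 1 (-0.35, limma adjusted p = 0.528) or without CLP array 1, 4 or 5 (limma adjusted p = 0.0527 to 0.0615). The mean log2 level of the list was 9.59 to 9.98 on the CLP arrays, and 9.62 on the highest fraction array, in B. Of 23 lymphoid progenitor genes 14 were higher, 1 was lower and 8 were not called (median 0.60). Cd27, Ccr9 (2.71 ± 0.35), Dntt, Tox (1.48 ± 0.28) and Notch1 (1.40 ± 0.20) were among the higher ones, and Cd48 was lower (-0.67 ± 0.10).

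Most genes of mature B cells were lower. Of 21 mature B cell genes 17 were lower, 1 was higher and 3 were not called (median -1.21). Ms4a1 was at 19.8 to 294.4 in the CLP and at means of 20773 in E and 21173 in F (difference -4.57 ± 0.29), and Cd22 (-3.74 ± 0.28) and the complement regulator Cd55 (-3.36 ± 0.32) followed. Of 9 MHC class II genes 5 were lower, 1 was higher and 3 were not called (median -0.65). H2-Aa was lowest (-2.04 ± 0.22), and H2-DMa, which loads peptides, was the one that was higher (1.60 ± 0.31).

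Of 19 B lineage commitment genes 13 were lower, 1 was higher and 5 were not called (median -1.05). Fcrla (-4.09 ± 0.33), the Ikaros family factor Ikzf3 (-2.22 ± 0.23) and Irf4 (-2.14 ± 0.22) were lower. Ebf1 and Pax5 did not pass the test, with differences of 0.21 ± 0.20 and 0.01 ± 0.23. Ebf1 had signals of 2464.5 to 4860.3 on the CLP arrays and of 34.6 to 514.1 on those of fraction A, while the means of B to F were 4345 to 7589.9. Pax5 had signals of 694.5 to 2095.6 in the CLP, 19.8 to 446.9 in A, and means of 1171 to 2629.8 in B to F. The CLP arrays thus lay above those of A for both genes, without overlap, which the comparison with the mean of the fractions does not show.

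The surrogate light chain gene Igll1, part of the pre-B cell receptor, was also above fraction A without overlap, but peaked in B and C. It was at 6922.7 to 9873.2 in the CLP and at 89.8 to 3155.1 in A, with means of 11995 in B and 12434 in C, falling to 3113 in D, 513.8 in E and 176.2 in F. Its difference from the mean of the fractions was 2.46 ± 0.39. Of the 12 genes of the pre-B cell receptor list 2 were higher, 2 were lower and 8 were not called (median 0.22). The mean level of the 15 tested NK cell markers was 10.88 to 11.81 on the arrays of A and 7.12 to 7.82 in the CLP, and its part in these comparisons was not tested.

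**Figure D4:**
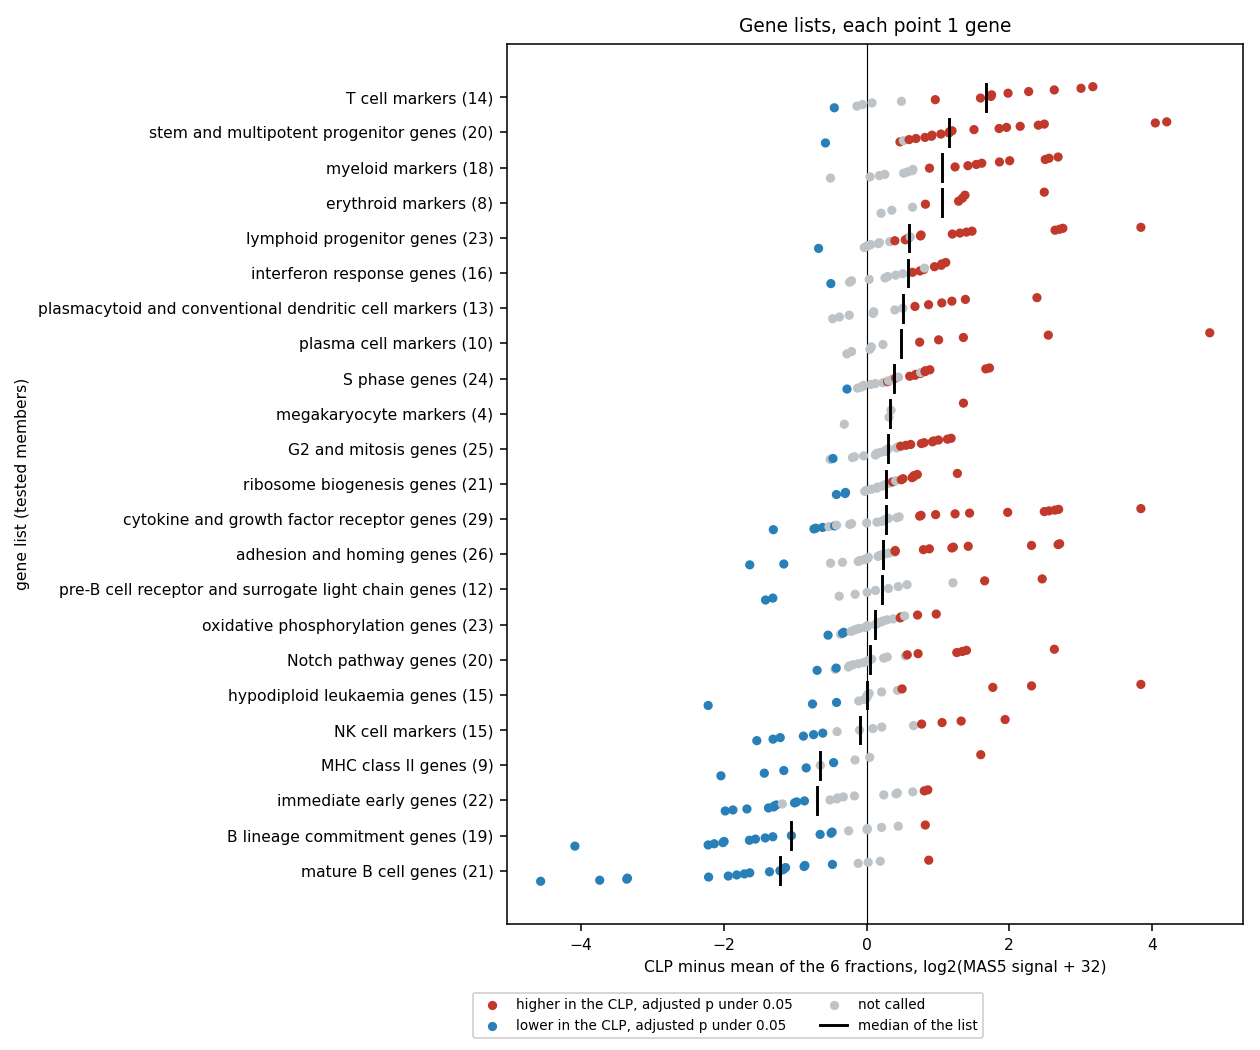
Difference between the CLP and the mean of the 6 fractions for each tested gene of 23 lists, ordered by the list median (black bar), with called genes in red (higher) or blue (lower) and others in grey. The medians run from -1.21 for mature B cell genes to 1.67 for T cell markers.

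Receptor and signalling lists were mixed. Of 29 cytokine and growth factor receptor genes 11 were higher, 5 were lower and 13 were not called (median 0.27). Flt3, the interleukin 1 receptor Il1r1 (2.69 ± 0.26), Il18r1 (2.64 ± 0.31), Csf1r (2.56 ± 0.50) and Kit had the largest differences, and Il10ra was the lowest (-1.31 ± 0.35). The mean level of the receptor list was 9.58 in the CLP, 9.71 in A and 8.62 to 9.07 in B to F, so A was not lower than the CLP. Of 20 Notch pathway genes 6 were higher, 2 were lower and 12 were not called (median 0.048), which is also near the 24.7% and 11.8% of all tested genes. The ubiquitin ligase gene Dtx4 (2.63 ± 0.28), the receptor Notch1 and the glycosyltransferases Lfng (1.34 ± 0.18) and Mfng (1.26 ± 0.18) were higher. The target genes Hes1 and Hey1 were not called, with signals of 67.6 to 116.5 and 8.7 to 73.9 in the CLP. Of 26 adhesion and homing genes 10 were higher, 2 were lower and 14 were not called (median 0.24). Ccr9, Ccr2 (2.68 ± 0.38) and the sphingosine 1-phosphate receptor S1pr3 (2.31 ± 0.30) were higher, and Cxcr5 (-1.64 ± 0.26) and S1pr1 (-1.16 ± 0.25) were lower. The mean level of the adhesion and homing list was 9.58 in the CLP, 9.95 in A and 8.54 to 9.24 in B to F.

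The series' design text points to genes altered in hypodiploid acute lymphoblastic leukaemia. Of 15 tested genes of that list 4 were higher, 3 were lower and 8 were not called (median 0.011). The count is close to the shares of all tested genes, 24.7% higher and 11.8% lower, so it is no result about the list, and its members are given as values. Flt3, the Ikaros family factor Ikzf2 (2.31 ± 0.30), Etv6 (1.77 ± 0.18) and Ptpn11 (0.50 ± 0.12) were higher. Ikzf3, Rb1 (-0.76 ± 0.14) and Eed (-0.42 ± 0.11) were lower. The members of the Ikaros family therefore differed in direction, with Ikzf1 at -0.03 ± 0.09 not called. Ikzf2 was at 264.2 to 806.4 in the CLP and had means of 447.3 in A and 21.8 to 97.5 in B to F, while Ikzf3 was at 1449.6 to 4074.2 in the CLP and rose to means of 19699.5 in E and 21692 in F.

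Cell cycle and growth genes were read next. Of 24 S phase genes 11 were higher and 1 was lower (median 0.39), with Gins2 at 1.72 ± 0.24 and Tk1, thymidine kinase, at 1.67 ± 0.22. Of 25 G2 and mitosis genes 10 were higher and 1 was lower (median 0.30), with Bub1b at 1.19 ± 0.22. The one that was lower, Mki67 (-0.47 ± 0.15), turned to 0.0043 under quantile normalization and was not called without fraction A (-0.35, limma adjusted p = 0.0669). The mean S phase level was 11.56 to 11.76 in the CLP, 11.83 to 12.02 in B and 10.18 to 10.88 in E and F. Of 21 ribosome biogenesis genes 8 were higher and 3 were lower (median 0.27), and of 23 oxidative phosphorylation genes 4 were higher and 3 were lower (median 0.12). Of the 6 lower genes in these lists, Npm1, Ncl, Atp5a1 and Cox6c turned above 0 under quantile normalization, and Rrs1 and Ncl with probe sets averaged per gene. Npm1, Ncl and Rrs1 were not called without fraction A (limma adjusted p = 0.186, 0.2 and 0.0696). Of 16 interferon response genes 7 were higher and 1 was lower (median 0.58), with a mean level of 8.44 in the CLP and 8.88 in C. Fraction B lay above the CLP in the mean level of G2 and mitosis genes (11.84 against 11.22). The same held for ribosome biogenesis (11.41 against 11.05) and oxidative phosphorylation genes (12.63 against 12.24).

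The immediate early genes, which respond within minutes to stimulation or handling, were lower in 10 of 22 and higher in 2 (median -0.69). Egr3 (-1.98 ± 0.27), Egr2 (-1.87 ± 0.41) and Klf4 (-1.68 ± 0.30) were lowest, and Myc (0.86 ± 0.16) was higher. They varied widely within the CLP. Fos was at 314.1 to 1152.9 on CLP arrays 1 to 3, and at 1776.4, 3869.2, 6795.5 and 8970.8 on arrays 4 to 7. The mean level of the list was 8.74 to 8.91 on the first 3 and 9.28 to 10.71 on the other 4. The labels do not say what the array numbers stand for. Array medians were split in the same place, at 123.5 to 130.4 on arrays 1 to 3 and 110 to 115 on arrays 4 to 7. So was the mean level of G2 and mitosis genes, at 10.62 to 11.08 and 11.31 to 11.68. The B lineage lists were split there too. B lineage commitment genes were at 10.27 to 10.66 and 10.85 to 11.24, and pre-B cell receptor genes at 10.55 to 10.68 and 10.71 to 11.22. Mature B cell genes were at 8.30 to 8.42 and 8.43 to 8.77. The level of stem and multipotent progenitor genes was not split, at 9.65 to 9.98 and 9.59 to 9.86, nor was that of S phase genes, at 11.56 to 11.68 and 11.59 to 11.76. Whether a batch lies behind these splits was not tested.

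Markers of other cell types were read for the same arrays. Of 14 tested T cell markers 9 were higher, 1 was lower and 4 were not called (median 1.67). Thy1 (3.17 ± 0.23), Gata3 (3.01 ± 0.21) and Cd3e (2.63 ± 0.27) were higher, while Cd4, Cd8a and Cd5 were not called, at 16.9 to 186.7 in the CLP. The mean level of the list was 8.07 to 9.36 in the CLP, 8.10 to 8.86 in A and 6.53 to 7.51 in B to F. The lower member, Cd247 (-0.45 ± 0.16), turned to 0.47 with the mean of its probe sets and was not called without CLP array 1 or 6 (limma adjusted p = 0.0579 and 0.0546). Of 15 NK cell markers 4 were higher and 6 were lower (median -0.098), with Nkg7 (1.94 ± 0.29) and Klrg1 (1.33 ± 0.20) above and Ifng (-1.54 ± 0.30) and Gzma (-1.31 ± 0.35) below. Neither was called without fraction A, where Ifng was at -0.71 (limma adjusted p = 0.0647) and Gzma at -0.021 (limma adjusted p = 0.972), and with a pseudocount of 1 Gzma was at -0.75 (limma adjusted p = 0.285). Gzma was at 43.8 to 188.3 in the CLP and at a mean of 30736.5 in A.

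Of 18 myeloid markers 10 were higher, 0 were lower and 8 were not called (median 1.06). By limma with Benjamini-Hochberg adjustment, the enzymes of granule precursors Mpo (1.62 ± 0.30), Elane (2.01 ± 0.29) and Ctsg (2.50 ± 0.38) were among those higher. The late granulocyte genes S100a8 (0.64 ± 0.32) and S100a9 (0.26 ± 0.33) did not pass. The list level was 9.17 to 10.74 in the CLP and 10.03 to 10.93 in C. Of 13 dendritic cell markers 6 were higher, 0 were lower and 7 were not called (median 0.51). Siglech was at 2.39 ± 0.26, with 554.3 to 1585.1 in the CLP and a mean of 4159 in A. The mean level of the dendritic list was 8.56 in the CLP and 9.81 in A. Of 8 erythroid markers 5 were higher (median 1.06), with Car1 at 2.49 ± 0.47 and 184.2 to 4584.1 in the CLP, and of 4 megakaryocyte markers 1 was higher (Pf4, 1.36 ± 0.36). Whether cells of these types were present in the CLP samples was not tested. The part of these markers in the differences of the 55 genes was not tested either.

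Of 10 plasma cell markers 5 were higher and 5 were not called (median 0.49), and this list holds Sdc1, 1 of the 47 genes. The 5 not called were Edem1 (0.23), Txndc5 (0.067), Prdm1 (0.048), Ell2 (-0.21) and Mzb1 (-0.28). Jchain, the joining chain of secreted antibodies, had the largest difference of the list, 4.81 ± 0.48. Its signal was 1053.3, 1660.3 and 2562.3 on CLP arrays 1 to 3 and 8276.8, 6636.2, 16091.7 and 18935.6 on arrays 4 to 7. The list level was 9.47 to 11.41 in the CLP and 8.22 to 10.18 in the fractions. Sdc1 did not spread in that way, at 3627.5, 3166.7 and 3339.4 on arrays 1 to 3 and 2543.4 to 3944.6 on arrays 4 to 7. The part of plasma cell transcripts in the level of Sdc1 was not tested.

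**Figure D5:**
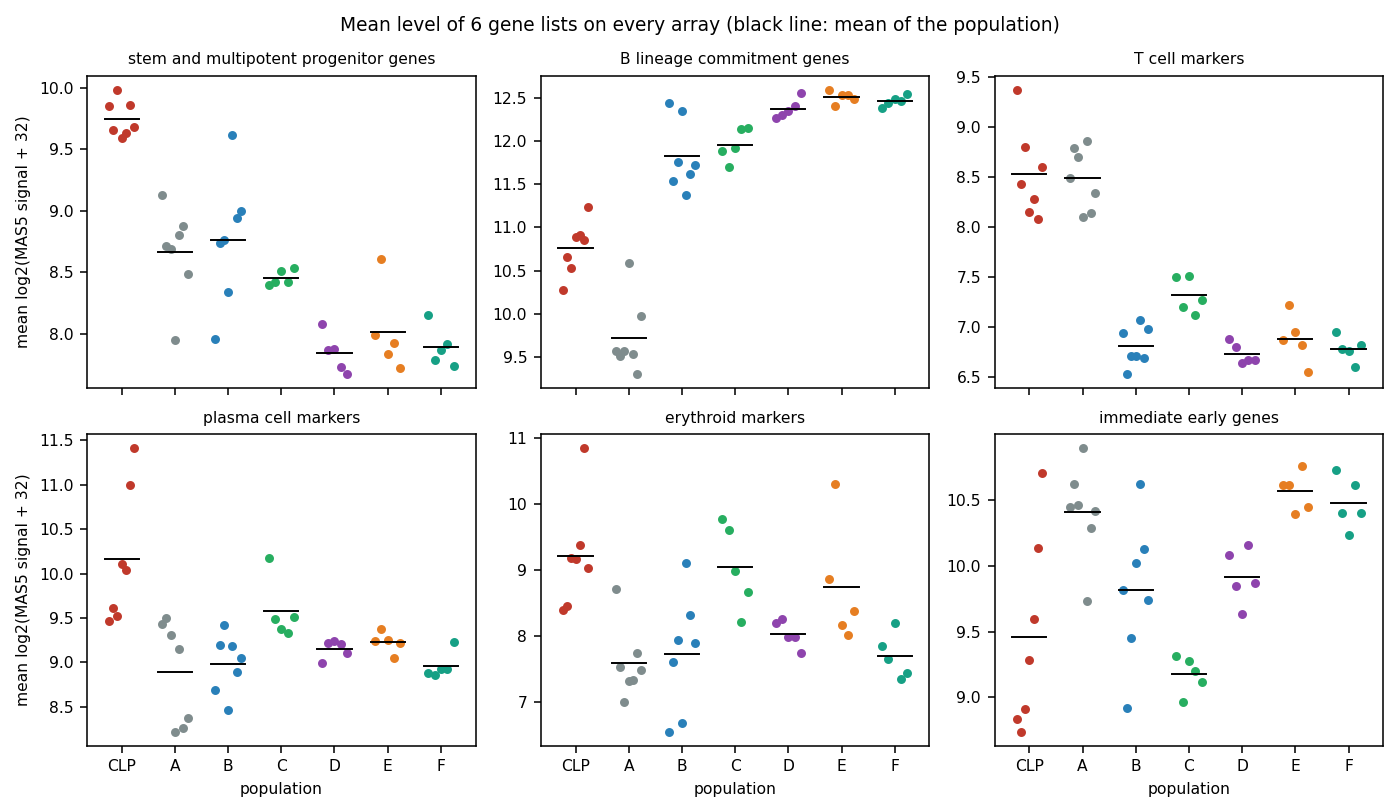
Mean log2(MAS5 signal + 32) over the tested genes of 6 lists on every array, by population, with black bars at population means. The CLP arrays are tight for stem and multipotent progenitor genes (9.59 to 9.98) and spread for plasma cell markers (9.47 to 11.41) and immediate early genes (8.74 to 10.71).

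Within the CLP the genes that led the comparison did not all vary together. Icos was at 3937.7 and 3747.6 on arrays 1 and 3 and at 1003.2 to 1793.5 on the other 5. Slc35d3 was at 1664.8 and 2087.0 on the same 2 arrays and at 637.2 to 984.3 elsewhere. Il17rb, Trgv1 and 5830411N06Rik were also highest on arrays 1 and 3, whereas Adgrg3 varied only from 3014.4 to 3769.4 over all 7. Genes outside the rule known from innate lymphoid cells, looked up after these values were seen, are given as levels only. Rora was at 1307.7 and 915.4 on arrays 1 and 3 and at 277.9 to 661.6 elsewhere, and Gata3 at 552.7 and 333.1 against 201.9 to 438.1. Id2 was at 1811.8 and 1139.7 against 567.0 to 1243.4. Arrays 1 and 3 were thus the highest pair for Rora, and not for Gata3 or Id2. Prkcb was lowest on array 3 (2019.5) and highest on array 4 (3879.0), and every CLP array still lay below the fractions.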

How the data were processed

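The 41 samples were grouped by population from their titles, with 1 array each. The intensity values deposited by the authors are linear signals from MAS5, as named without a version in the submitters' processing notes. After trimming 2% of probe sets at either end, every array had a mean of 500, so each had been scaled to that target, and no further normalization was applied. The probes' genome build was not given in the sources used here.

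Of 45101 probe sets, 64 were controls; 34945 had 1 gene in the platform annotation, 932 had several and 9211 were not listed. Entrez identifiers of 34741 were found in the gene reference, and 0 symbols changed. Each of 18193 genes was represented by its probe set with the highest mean log2 signal, and the 11947 genes that were no lower than the array median in 5 arrays or more were tested.

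Differences were tested on log2(signal + 32) with limma 3.58.1 (functions lmFit and contrasts.fit, then eBayes with its trend and robust options), statmod 1.5.0 in R 4.3.3, in 1 fit of 7 group means, with Benjamini-Hochberg adjustment over all genes tested. The method was tested on simulated data. The number of arrays limits the precision.

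Named genes are the 12 with the largest differences in each direction among genes without overlap (8 exist below), up to 3 called members per direction of each list, the 8 CLP markers, the genes nearest the edge of the rule and those with the widest gap. Other genes named, among them members without overlap and list members that were not called, were singled out after their values were seen. The comparison, members and lists were chosen with earlier results of these data known. Alternatives were a pseudocount of 1 or 128, no filter or one at the 75th percentile, median centring, quantile normalization, probe sets averaged per gene or tested one by one, no fraction A or F, the mean of the 34 arrays, a replicate block, array weights, eBayes without trend and robust, and each array left out in turn.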

Additional observations from a re-analysis of the deposited data

Results flagged for a closer look

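In 176 groups of CLP arrays examined, 10 had 1 array far from the other 6 by Dixon's ratio of the gap to the range; chance gives about 1 in 20. Of the 55 genes without overlap, 2 were among them. 5730409E04Rik was at 399.5 on CLP array 1 against 240.6 on the next (ratio 0.585), and Mgat4a, which builds branches of N-glycans, at 3096.7 on array 2 against 2227 (0.671). Both high arrays widen the distance to the fractions, and both genes were called without any single array.

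Among other named genes, Il1r1 was at 1027.2 on array 1 against 576.2 on the next (0.6). Array 7 had the lowest Ccr2, 103.7 against 1190.1 (0.784), the highest Cxcr5, 91.3 against 28 (0.584), and the highest Mgat5, 2629.6 against 2001.8 (0.61). Atp5a1 was lowest on array 5, at 14181.9 (0.735). The mean log2 level of MHC class II genes was highest on array 7, at 9.73 against 9.35 (0.729), that of hypodiploid leukaemia genes on array 2, at 11.06 against 10.99 (0.568), and that of erythroid markers on array 6, at 10.84 against 9.38 (0.596). Their causes were not tested.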

How the results depend on the processing

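All 55 genes without overlap were called in every fit that tested them, except 2610035D17Rik, Smg6 and Son with probe sets averaged per gene. Leaving out 1 array gave 2582 to 3216 genes higher, 1220 to 1581 lower, 47 to 64 with every CLP array above and 8 to 10 below. The counts of separated genes could only stay or rise, because leaving out arrays cannot undo a separation. The same holds for those counts without fraction A or F. The 2952 genes higher and 1409 lower, of 11947, became 1675 and 539 with the mean of the 34 arrays. In that fit the spread between fractions counts as error. Of 28459 probe sets tested one by one, 5481 were higher and 3700 lower, so these counts have another base. Array weights gave 4277 genes higher and 2236 lower. The 47 genes above became 25 with median centring, 88 probe sets, and 212 without fraction A. With the mean of probe sets 60 lay above, but 31 of the 47 and 1 of the 8 below kept the separation. The 8 below became 3 with quantile normalization, 4 with median centring, 2 with the mean of probe sets and 42 without fraction A. Under quantile normalization 5 named genes changed sign: Atp5a1 (0.032), Cox6c (0.072), Mki67 (0.0043), Npm1 (0.19) and Ncl (0.098). With the mean of probe sets 3 did: Cd247 (0.47), Rrs1 (0.057) and Ncl (0.21). Of 153 named genes tested, 56 lost their call under at least 1 alternative, 33 of them only with the mean of the 34 arrays. Why these differ was not tested beyond the construction of each alternative.

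Replicate numbers are shared between populations. Deviations of arrays with the same number correlated at -0.25 to 0.22 (median 0.0056, 111 pairs). Those with different numbers correlated at -0.25 to 0.27 (median -0.0008, 606 pairs). The labels do not name the animals, so whether some arrays with the same number belong together is not known. With the replicate number as a block, 2991 genes were higher and 1416 lower.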
